A study of Mus musculus with 8 samples.

Results

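Chromatin remodelers and histone-modifying enzymes were followed here as a set of 89 gene symbols out of the 26608 listed in the count tables. The members were taken by name only. They are the genes whose symbols begin with Kdm, Hdac, Sirt, Arid, Chd, Cbx or Setd followed by a digit, or with Smarc, together with Ezh1, Ezh2, Tet1, Tet2, Tet3, Eed, Suz12, Ep300 and Crebbp. Kdm3a, Kdm5c, Kdm5d and Kdm6a were left out by the rule. Gene expression was measured by SAGE, a method that counts 1 short sequence tag per transcript, taken close to its 3′ end, in tissue cut by laser from cryosections of FVB mouse embryos at embryonic day 8.5. All embryos came from diabetic dams, so both groups share that exposure and no group from healthy dams is part of the comparison. The 4 protrusion libraries came from outgrowths of the open neural plate, with protrusion 1 labelled as separated from the plate and protrusions 2, 3 and 4 as attached. The 4 open neural tube libraries, numbered 9, 10, 13 and 14, came from tissue of normal shape, in front of the first point of neural fold fusion (closure site 1). The labels give no axial level for the protrusions, so level along the body axis and protrusion cannot be told apart. Whether each library is a separate embryo is also not labelled, and p-values then measure only library-to-library spread, some of which may be technical.

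Chromatin proteins act in a few broad ways. ATP-dependent remodelers of the SWI/SNF, ISWI and CHD families slide, eject or restructure nucleosomes. Writers such as Ezh2, the SETD proteins and p300 add methyl or acetyl groups to histones, readers such as the chromobox proteins bind those marks, and erasers such as histone deacetylases, sirtuins and KDM demethylases remove them. In the early embryo, Polycomb complexes hold Hox and other patterning genes silent, and loss of several remodelers and acetyltransferases in mice, among them Ep300 and Crebbp, is known to disturb neural tube closure.

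What a SAGE library reads of each transcript is a tag that starts at the recognition site of the anchoring enzyme. The labels name the SOLiD SAGE kit, whose anchoring enzyme is generally known to be NlaIII, with the site CATG. The tags predicted for 6 members that the results below turn on were read from the longest coding GENCODE M21 transcript of each gene (build GRCm38), as 27 bases from the CATG nearest the 3′ end, with the site in capitals.
Arid3b: CATGttcttgaatgtttatatttcaat
Arid2: CATGtatgttttttaaactataaaatg
Smarcc1: CATGactgtcagttaggtatcattcct
Ezh2: CATGtgcagctttctgttcaacttgaa
Hdac2: CATGaagaaaacagagaaggcactata
Hdac1: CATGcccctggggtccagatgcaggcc
The Arid3b tag lies at chr9:57790375-57790401 on the minus strand, that of Arid2 at chr15:96404940-96404966 on the plus strand, that of Smarcc1 at chr9:110239889-110239915 on the plus strand and that of Hdac2 at chr10:36995862-36995888 on the plus strand, all in 3′ untranslated exons. The Ezh2 tag at chr6:47532907-47532933 and the Hdac1 tag at chr4:129517863-129517889, both on the minus strand, lie in coding sequence. A tag of this kind could be predicted for all 89 members, and 77 of them fall wholly in the 3′ untranslated region. For 87 members the same 27 bases stood at a CATG in no transcript of another gene. The exceptions were Sirt5, whose tag also occurs in Wdr31, and Hdac1, whose tag also occurs in 3 other genes, Gm10093, Gm4864 and AC125456.1, so reads for Hdac1 and Sirt5 could have been shared with other genes or dropped. The tags of Kdm1b, Kdm2b, Sirt3 and Smarcd3 overlap exons of a gene on the opposite strand, and that of Arid2 overlaps Gm25397 on its own strand. The sources used here do not give how tags were assigned to genes or whether strand was used, so the values of these members are uncertain in that respect.

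Total counts were 6112477 to 11430602 reads in protrusions and 5668054 to 16655583 reads in open neural tubes, and 3 reads corresponded to 0.262 to 0.491 CPM in the protrusions, against 0.180 to 0.529 CPM in the open neural tubes (CPM, counts scaled to the library's total). The libraries differed in complexity along with the groups. Genes averaging 5 to 20 CPM numbered 3280, and a protrusion library lacked 0.0915% to 0.549% of them, against 4.85% to 18.8% for an open neural tube library. Genes of the primitive streak and presomitic mesoderm, a list of 10, summed to 321 to 1777 CPM in the protrusions, against 7.21 to 49.2 CPM in the open neural tubes. All 10 were detected in protrusions and 8 in open neural tubes, where Msgn1 and Nodal were at 0. Of the 8 neural plate markers, all were detected in both groups, with sums of 453 to 1113 CPM in the protrusions, against 226 to 1058 CPM in the open neural tubes. Detected here means a read in any library of the group, and single markers differed (named after their values were seen). Sox1 was at 4.01 to 6.85 CPM in the attached protrusions, against 108 CPM in protrusion 1 and 15.3 to 99.6 CPM in open neural tubes. Pax6 was at 0.612 to 7.21 CPM in the attached protrusions, against 31.6 CPM in protrusion 1 and 4.92 to 60.9 CPM in open neural tubes. Sox3 went the other way, at 23.9 to 50.7 CPM in the attached protrusions, against 0 to 3.18 CPM elsewhere. Erythroid markers, 8 in all, with Hbb-y at 0 in both groups and Alas2 at 0 in protrusions, summed to 1.00 to 47.1 CPM in the protrusions, against 1.06 to 1010 CPM in the open neural tubes, and 8 endothelial markers, with Kdr and Flt1 at 0 in open neural tubes, to 1.58 to 34.7 CPM in the protrusions, against 7.50 to 166 CPM in the open neural tubes. Surface ectoderm markers summed to 136 to 1025 CPM in the protrusions, against 50.7 to 320 CPM in the open neural tubes, with 5 of 5 detected in both. Endoderm markers summed to 4.59 to 23.5 CPM in the protrusions, against 2.96 to 45.3 CPM in the open neural tubes, where Apoa1 and Cldn6 of the 6 were at 0. The part of complexity and of tissue makeup in the results below was not tested. In such bulk tissue, fewer cells of a type and less RNA per cell cannot be told apart.

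The summed level of the 89 chromatin genes was 6370, 6551, 7313 and 6646 CPM in protrusions 1, 2, 3 and 4, and 6146, 6468, 6839 and 6693 CPM in open neural tubes 9, 10, 13 and 14. The groups overlapped, with means of 6720 ± 412 CPM in the protrusions, against 6536 ± 302 CPM in the open neural tubes (SD, n = 4 each). Hdac2 made up 1043 CPM of that mean in protrusions, against 1461 CPM in open neural tubes. At least 1 read was found for 84, 84, 89 and 86 members in protrusions 1, 2, 3 and 4, and for 77, 73, 78 and 74 members in open neural tubes 9, 10, 13 and 14. The detection counts did not overlap between groups, in the same direction as library complexity over all genes.

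**Figure D1:**
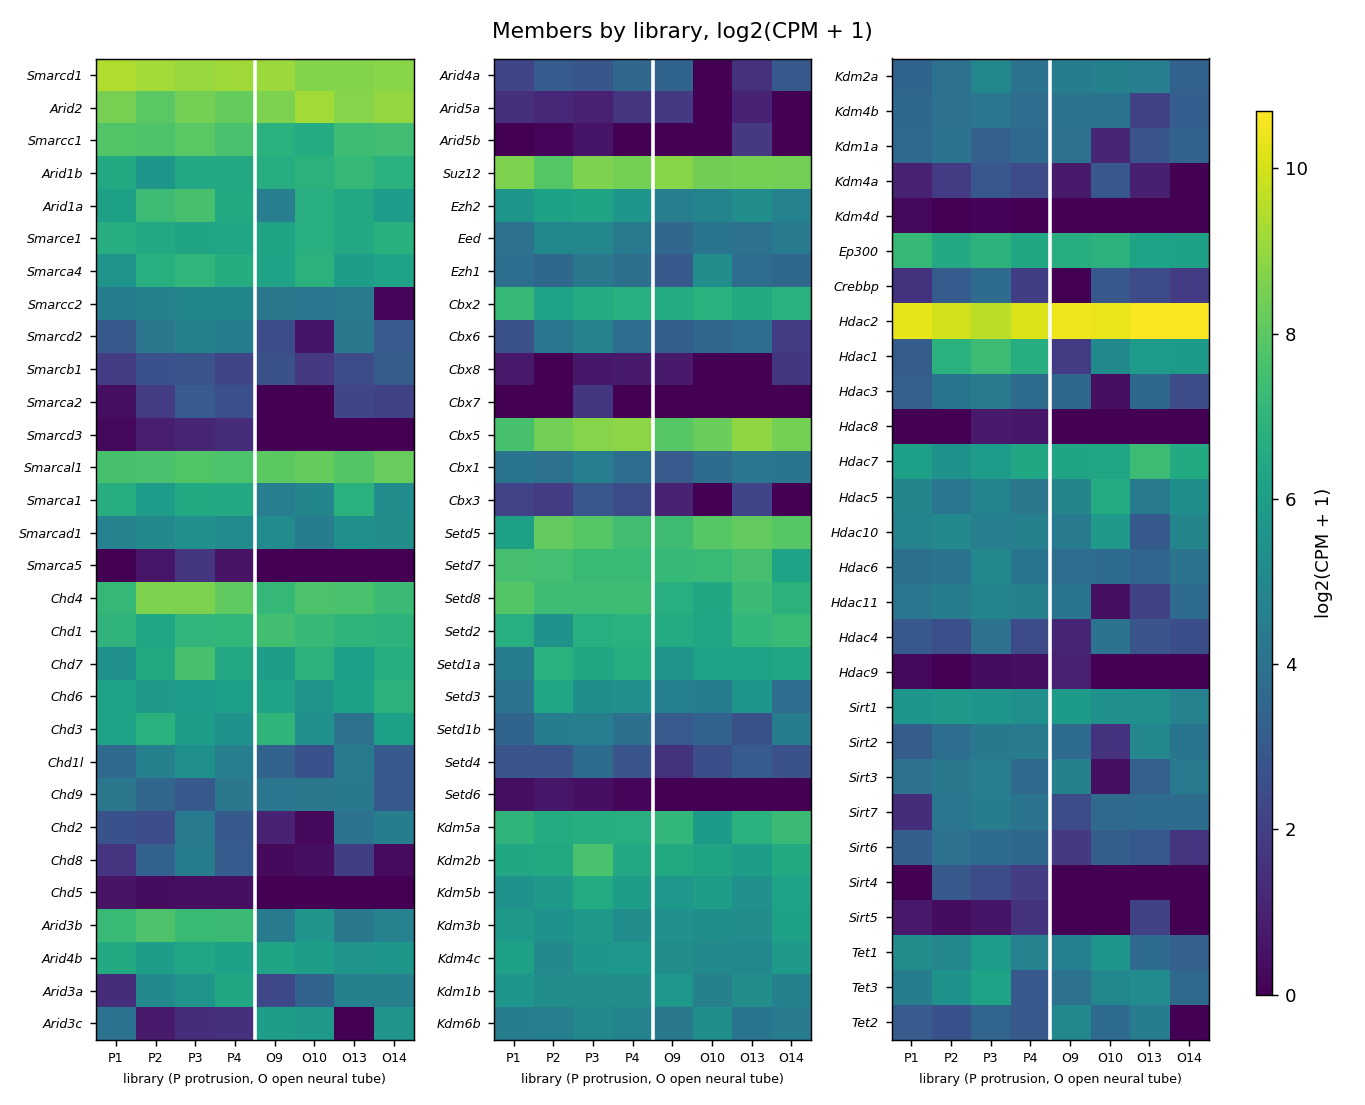
Heat map of 88 members in the 8 libraries as log2(CPM + 1), with protrusions 1 to 4 (P) left of open neural tubes 9, 10, 13 and 14 (O) and genes grouped by family, most abundant first. Hdac2 is the brightest row in every library, and the dark blocks on the open neural tube side include Smarcd3, Smarca5, Chd5, Setd6, Sirt4, Hdac8, Cbx7 and Kdm4d, which had 0 reads in all 4 open neural tubes.

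The comparison of protrusions with open neural plate asked which of these genes differ between misshapen and normally shaped tissue. Of the 89 members, 77 had enough reads to be tested, and 1 of them, Arid3b, rose in protrusions (edgeR quasi-likelihood test, Benjamini-Hochberg adjusted p under 0.05 over all 11036 genes tested). In the same direction 0.281% of all genes tested passed. In the other direction 0 members passed, where 0.326% of all genes did. DESeq2 called 3 members higher, Arid3b, Ezh2 and Chd8, and 1 lower, Arid2, where 3.7% of all genes were called higher and 3.51% lower. With limma-voom, 1 member was higher and 0 lower, beside 2.0% and 1.35% of all genes, and with sample weights again 1 and 0, beside 0.933% and 0.779%. Unadjusted, 5 members were higher and 6 lower at p under 0.05 in edgeR, beside 7.02% and 8.33% of all genes. These 11 are 14.3% of the tested members, beside 15.3% of all genes tested, a share near the background.

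The median log2 fold change was 0.21 over the tested members and 0.08 over all genes tested, and 50 of 77 members (64.9%) had a fitted change above 0, where 53.7% of all genes did. Direction went with abundance. Of the 15 members with a mean of at least 100 CPM, 5 had a fitted change above 0 and the median was −0.19, beside 40.5% and −0.13 for all genes of that level. Of the 31 tested members under 20 CPM, 23 were above 0 with a median of 0.50, beside 60.0% and 0.27 for all genes of that level, where open neural tube libraries more often missed a gene. In 11 of the 77 members the 4 protrusion values lay wholly to 1 side of the 4 open neural tube values, 7 higher and 4 lower. That is 14.3%, beside 13.4% of all genes tested (8.84% higher and 4.55% lower). The count was 21 (27.3%) without protrusion 1, beside 24.1% of all genes, and 19 (24.7%) without open neural tube 13, beside 22.7% of all genes. Leaving out any other single library gave a count of 11 to 14 (14.3% to 18.2%), beside 15.1% to 19.3% of all genes. Such an omission can only keep or raise the count. With TMM-scaled CPM it was 9, without Hdac11 and Setd8, whose groups then overlapped.

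**Figure D2:**
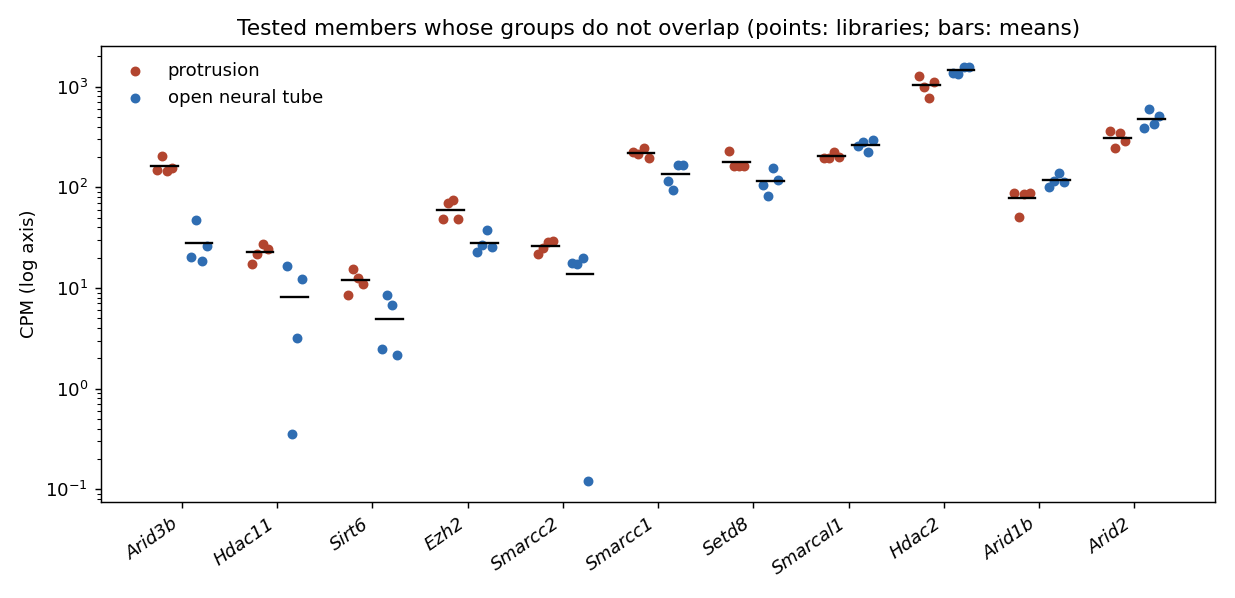
CPM in each library (log axis) of the 11 tested members whose groups do not overlap, protrusions in red left of open neural tubes in blue, with bars at the group means, ordered by log2 fold change. Arid3b shows the widest gap, 146 to 206 CPM in the protrusions, against 18.4 to 46.9 CPM in the open neural tubes, and the lowest points are open neural tube 14 of Smarcc2 at 0.119 CPM and open neural tube 10 of Hdac11 at 0.353 CPM.

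Among the ARID proteins, which bind DNA through an AT-rich interaction domain, Arid3b stood apart. Arid3b is a transcription factor related to Drosophila dead ringer that is needed for mouse embryonic development. It was at 149, 206, 146 and 156 CPM in protrusions 1, 2, 3 and 4, and at 20.1, 46.9, 18.4 and 26.0 CPM in open neural tubes 9, 10, 13 and 14. Every protrusion lay above every open neural tube, and the separated protrusion was at the level of the attached ones. The means were 165 ± 28.3 CPM in the protrusions, against 27.9 ± 13.1 CPM in the open neural tubes (SD, n = 4 each), a 5.90-fold difference of means. The fitted log2 fold change was 2.50 ± 0.32 (SE; edgeR adjusted p = 0.0111). It lay between 2.38 and 2.88 in all 18 alternatives, and 15 of them kept the call. The call ended without protrusion 4 (edgeR adjusted p = 0.0534), without open neural tube 9 (0.0572) and without open neural tube 14 (0.0837), fits in which 6, 1 and 2 genes were called in all. Without open neural tube 10, the open neural tube with the most Arid3b, the change was 2.88 ± 0.26. At the level of Arid3b, 20 to 100 CPM on average, 0.508% of all open neural tube values were at 0. Primitive streak and presomitic markers were, like Arid3b, higher in the protrusions. They summed to 321 CPM in protrusion 1 and to 1777, 1581 and 1491 CPM in protrusions 2, 3 and 4. Cdx1 of that list was at 138, 211, 91.9 and 173 CPM in protrusions 1, 2, 3 and 4 (named after its values were seen). In open neural tubes 9, 10, 13 and 14 it was at 2.27, 21.5, 9.19 and 3.34 CPM. Unlike Arid3b and Cdx1, the other genes of the list were each lower in protrusion 1 than in every attached protrusion. T, for example, was at 36.8, 737, 498 and 379 CPM in protrusions 1, 2, 3 and 4. The part of these markers in the difference of Arid3b was not tested.

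Its relatives Arid3a and Arid3c showed other patterns. Arid3a, the mouse Bright gene of B cells and early embryos, was at 1.64, 33.1, 45.8 and 80.9 CPM in protrusions 1, 2, 3 and 4, and at 3.95, 9.53, 25.3 and 24.2 CPM in open neural tubes 9, 10, 13 and 14 (named after its values were seen). The 3 attached protrusions lay above all open neural tubes and the separated one below all of them. Arid3c, the least studied of the ARID3 genes, was at 16.0, 0.717, 1.57 and 1.68 CPM in protrusions 1, 2, 3 and 4, against 63.0, 53.5, 0 and 46.7 CPM in open neural tubes 9, 10, 13 and 14. In open neural tube 13 the limit for 0 reads was 0.180 CPM. The groups overlapped through open neural tube 13, and the fitted difference of −3.10 ± 1.48 on the log2 scale did not pass (edgeR adjusted p = 0.356). Without protrusion 1 and open neural tube 13, a pair known from earlier results on these data to move the number of calls, Arid3c was called lower (edgeR adjusted p = 0.00532), where 0.855% of all genes were called lower and 1.02% higher. Leaving out both removes the values that went against the difference, so this call lends it no support. Arid3c was not called without protrusion 1 alone (edgeR adjusted p = 0.137) or without open neural tube 13 alone (0.0784). The 8 neural plate markers are set beside Arid3c after their values were seen. Sox1 was at 108, 4.01, 6.12 and 6.85 CPM in protrusions 1, 2, 3 and 4. In open neural tubes 9, 10, 13 and 14 it was at 99.3, 78.0, 15.3 and 99.6 CPM. The 4 libraries with the most Arid3c were protrusion 1 and open neural tubes 9, 10 and 14. These were also the highest in Sox1, but in another order, with protrusion 1 first in Sox1. They were the highest in Pax6, Sox21 and Nes too, but not in Sox2, Ncam1 or Cdh2. Sox3 did not go with Arid3c. It was at 0, 23.9, 50.7 and 35.5 CPM in protrusions 1, 2, 3 and 4. In open neural tubes 9, 10, 13 and 14 it was at 0, 3.18, 1.26 and 2.03 CPM. The 8 neural plate markers together were at 1113, 630, 453 and 862 CPM in protrusions 1, 2, 3 and 4, and at 1058, 765, 226 and 880 CPM in open neural tubes 9, 10, 13 and 14, and their part in the values of Arid3c was not tested. The remaining tested members of the group, Arid4a, Arid4b and Arid5a, overlapped between groups (named after their values were seen).

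SWI/SNF, the multi-subunit remodeler built around the ATPases Smarca4 (Brg1) and Smarca2 (Brm), had 12 members here, of which 11 were tested. Of these, 7 had a fitted change above 0 and 4 below. In edgeR 0 passed, with 1 higher and 2 lower at an unadjusted p under 0.05, while DESeq2 called 1 and limma-voom 0. The Arid2 subunit, which marks the PBAF form of the complex, was at 366, 245, 350 and 286 CPM in protrusions 1, 2, 3 and 4, and at 386, 595, 430 and 506 CPM in open neural tubes 9, 10, 13 and 14. All protrusions lay below all open neural tubes, by a narrow margin between protrusion 1 and open neural tube 9. Its log2 fold change was −0.71 ± 0.18 (edgeR adjusted p = 0.0832), and DESeq2 called it (adjusted p = 0.0147). Arid1b, an ARID subunit of the BAF form, was at 88.5, 50.2, 86.6 and 87.7 CPM in protrusions 1, 2, 3 and 4, and at 101, 117, 140 and 113 CPM in open neural tubes 9, 10, 13 and 14. These groups did not overlap either, and the log2 fold change was −0.69 ± 0.23 (edgeR adjusted p = 0.171).

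Smarcc1, the BAF155 scaffold of the complex, leaned the other way. It was at 223, 214, 245 and 195 CPM in protrusions 1, 2, 3 and 4, and at 115, 94.0, 167 and 168 CPM in open neural tubes 9, 10, 13 and 14. Again the groups did not overlap, and the fitted log2 difference was 0.59 ± 0.23 (edgeR adjusted p = 0.237). Smarcd1, the BAF60a subunit, had the highest CPM of the SWI/SNF genes, 592 ± 63.4 CPM in the protrusions, against 454 ± 58.7 CPM in the open neural tubes (SD, n = 4 each; log2 0.30 ± 0.17, edgeR adjusted p = 0.480). SAGE reads 1 tag per transcript, so CPM values can be set side by side between genes as long as their tags are read equally well. The ATPase Smarca4 was at 46.0 to 130 CPM in the protrusions, against 61.7 to 116 CPM in the open neural tubes, and the alternative ATPase Smarca2 at 0.327 to 7.35 CPM in the protrusions, against 0 to 3.72 CPM in the open neural tubes (both named after their values were seen). The summed SWI/SNF level was 1561 ± 91.3 CPM in the protrusions, against 1457 ± 96.6 CPM in the open neural tubes (SD, n = 4 each), with overlapping groups.

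Of the ISWI and related ATPases, Smarcal1, an annealing helicase that protects stalled replication forks, was steady within each group. It was at 194, 198, 224 and 201 CPM in protrusions 1, 2, 3 and 4, and at 258, 284, 226 and 294 CPM in open neural tubes 9, 10, 13 and 14. The groups were separated by the small step between protrusion 3 and open neural tube 13, and the log2 fold change was −0.47 ± 0.15 (edgeR adjusted p = 0.152). After thinning to the smallest total, the groups of Smarcal1 overlapped. Smarca1, an ISWI ATPase, was at 57.9 to 102 CPM in protrusions, within the open neural tube range of 22.6 to 113 CPM, whose top was open neural tube 13 (log2 0.63 ± 0.48, edgeR adjusted p = 0.614). Smarca5, the paralogous ISWI ATPase, had 0, 4, 26 and 4 reads in protrusions 1, 2, 3 and 4 and 0 reads in all open neural tubes, and was not tested. Whether its tag was read as well as that of Smarca1 was not tested either, so 0 reads do not show that the transcript was absent.

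The CHD remodelers, which carry chromodomains beside their ATPase, had 9 of 10 members tested. In edgeR 0 passed, with 2 higher at an unadjusted p under 0.05, while DESeq2 called 1 and limma-voom 0. Chd4, the ATPase of the NuRD deacetylase complex and the member of the family with the most tags, was at 139, 393, 381 and 268 CPM in protrusions 1, 2, 3 and 4, and at 137, 207, 196 and 158 CPM in open neural tubes 9, 10, 13 and 14. The attached protrusions lay above all open neural tubes and the separated one among them (log2 0.66 ± 0.30, edgeR adjusted p = 0.324). Chd8, which binds β-catenin and restrains Wnt target genes, was at 2.13, 9.32, 21.7 and 7.57 CPM in protrusions 1, 2, 3 and 4, and at 0.197, 0.353, 3.002 and 0.239 CPM in open neural tubes 9, 10, 13 and 14. Its log2 fold change was 3.22 ± 1.25 (edgeR adjusted p = 0.243), and DESeq2 called it (adjusted p = 0.0455). Chd8 belongs to the level of 5 to 20 CPM, where 11.5% of all open neural tube values were at 0, and had 2 reads each in open neural tubes 9, 10 and 14. Chd7, the gene of CHARGE syndrome in humans, was at 40.7 to 194 CPM in the protrusions, against 63.5 to 117 CPM in the open neural tubes (log2 0.15 ± 0.39, edgeR adjusted p = 0.914; named after its values were seen).

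Polycomb repressive complex 2 methylates histone H3 at silenced developmental genes, and its 4 core genes were all tested. In edgeR 0 passed, with 1 higher at an unadjusted p under 0.05, while DESeq2 called 1 and limma-voom 0. Ezh2, its main catalytic subunit in proliferating cells, was at 47.9, 69.1, 74.5 and 48.7 CPM in protrusions 1, 2, 3 and 4, and at 22.8, 26.6, 37.3 and 25.8 CPM in open neural tubes 9, 10, 13 and 14. All protrusions lay above all open neural tubes, with means of 60.1 ± 13.8 CPM in the protrusions, against 28.1 ± 6.35 CPM in the open neural tubes (SD, n = 4 each), a 2.13-fold difference of means. The log2 fold change was 0.99 ± 0.28 and missed the threshold in edgeR (adjusted p = 0.105), while DESeq2 called it (adjusted p = 0.0223). Over the 18 alternatives its adjusted p ranged up to 0.273. The other subunits overlapped between groups. Suz12, the scaffold and most abundant of the 4, was at 344 ± 73.5 CPM in the protrusions, against 369 ± 50.5 CPM in the open neural tubes (log2 −0.20 ± 0.19, edgeR adjusted p = 0.702). Eed, the reader of the complex's own mark, was at 24.2 ± 7.82 CPM in the protrusions, against 15.9 ± 4.17 CPM in the open neural tubes (SD, n = 4 each; log2 0.52 ± 0.40, edgeR adjusted p = 0.615). Ezh1, the alternative catalytic subunit, was at 11.2 to 18.3 CPM in the protrusions, against 6.91 to 37.0 CPM in the open neural tubes (named after its values were seen).

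Chromobox proteins read methylated histones, the Polycomb members in PRC1 and the HP1 members in heterochromatin. Cbx2 was the most abundant Polycomb chromobox gene, at 102 ± 30.0 CPM in the protrusions, against 103 ± 11.3 CPM in the open neural tubes (SD, n = 4 each; log2 −0.10 ± 0.24, edgeR adjusted p = 0.901). Cbx6 was at 5.24 to 25.7 CPM in the protrusions, against 2.63 to 13.6 CPM in the open neural tubes, with overlapping groups. Cbx7 was detected in protrusion 3 alone of all libraries, at 2.19 CPM (named after its values were seen). Cbx5 (HP1α) was at 189 to 453 CPM in the protrusions, against 241 to 483 CPM in the open neural tubes (log2 −0.07 ± 0.29, edgeR adjusted p = 0.953). Cbx1 (HP1β) was at 17.2 ± 3.95 CPM in the protrusions, against 13.6 ± 4.53 CPM in the open neural tubes, and Cbx3 (HP1γ) at 4.24 ± 1.64 CPM in the protrusions, against 1.19 ± 1.73 CPM in the open neural tubes (SD, n = 4 each). Of the 6 tested chromobox genes, 0 passed in edgeR, DESeq2 or limma-voom, and 0 had an unadjusted p under 0.05 in edgeR.

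**Figure D3:**
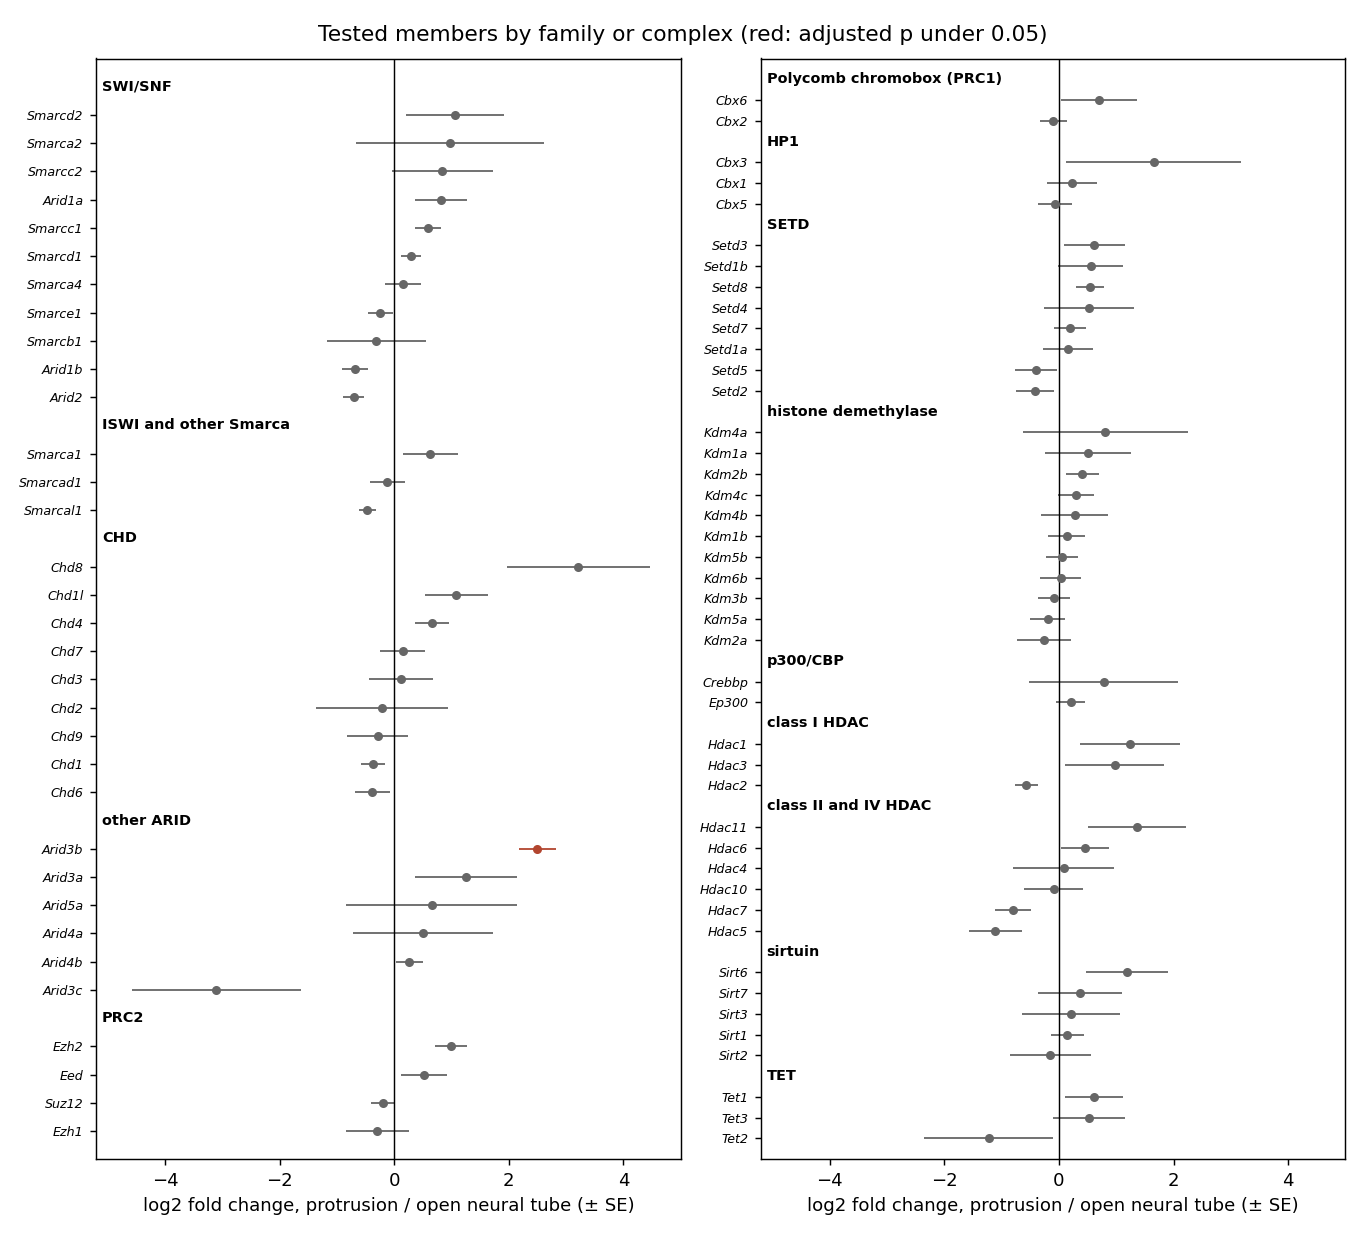
Log2 fold change of protrusion over open neural tube with its standard error (edgeR) for 76 tested members, grouped by family or complex, with adjusted p under 0.05 in red. Arid3b at 2.50 ± 0.32 is the red point, and among the longest bars are those of Smarca2, Cbx3, Arid3c and Chd8.

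The SETD family of SET-domain proteins, most of them histone methyltransferases, had 8 of 9 members tested, with 0 past the threshold in edgeR, DESeq2 or limma-voom and 0 at an unadjusted p under 0.05 in edgeR. Setd8 (now Kmt5a), which places a single methyl group on histone H4 and is needed for mitosis, was at 230, 164, 162 and 164 CPM in protrusions 1, 2, 3 and 4, and at 106, 82.0, 156 and 117 CPM in open neural tubes 9, 10, 13 and 14. Protrusions lay above open neural tubes, with open neural tube 13 close to 3 of them and among them after TMM scaling (log2 0.54 ± 0.25, edgeR adjusted p = 0.332). Setd5, the most abundant of the family, was at 66.9, 280, 237 and 169 CPM in protrusions 1, 2, 3 and 4, and at 168, 242, 280 and 240 CPM in open neural tubes 9, 10, 13 and 14 (log2 −0.40 ± 0.37, edgeR adjusted p = 0.688). Setd2, which methylates H3 along transcribed genes, was at 42.6 to 114 CPM in the protrusions, against 77.6 to 150 CPM in the open neural tubes (log2 −0.42 ± 0.33, edgeR adjusted p = 0.629). The acetyltransferase Ep300 was at 109 ± 28.3 CPM in the protrusions, against 89.4 ± 23.5 CPM in the open neural tubes, and its paralog Crebbp at 6.31 ± 4.84 CPM in the protrusions, against 3.43 ± 2.83 CPM in the open neural tubes (SD, n = 4 each; edgeR adjusted p = 0.778 for Ep300 and 0.844 for Crebbp).

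Histone deacetylases of class I are the abundant nuclear erasers of acetyl marks, and Hdac2 had the highest CPM of all 89 members. It was at 1278, 998, 778 and 1118 CPM in protrusions 1, 2, 3 and 4, and at 1369, 1338, 1582 and 1554 CPM in open neural tubes 9, 10, 13 and 14. All protrusions lay below all open neural tubes, with means of 1043 ± 210 CPM in the protrusions, against 1461 ± 125 CPM in the open neural tubes (SD, n = 4 each). The log2 fold change was −0.57 ± 0.20 (edgeR adjusted p = 0.189), and it was not past the threshold in any of the 18 alternatives (adjusted p 0.0763 to 0.412). Its close paralog Hdac1 was at 7.85, 113, 161 and 102 CPM in protrusions 1, 2, 3 and 4, and at 2.76, 33.5, 57.8 and 56.1 CPM in open neural tubes 9, 10, 13 and 14. The attached protrusions lay above the open neural tubes, and protrusion 1 and open neural tube 9 lay far below the rest of their groups (log2 1.24 ± 0.88, edgeR adjusted p = 0.576). The Hdac1 tag is shared with 3 other genes, as given above. Hdac8, an X-linked deacetylase of cohesin, was read 8 times in protrusion 3 and 5 times in protrusion 4 and in no other library (named after its values were seen).

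Class II and IV deacetylases, with 6 of 7 tested, had 0 past the threshold in edgeR, DESeq2 or limma-voom, and 2 lower at an unadjusted p under 0.05 in edgeR. Their median log2 fold change was −0.01 with TMM factors and 0.07 with no scaling, so its sign depended on the scaling. Hdac7, the most abundant of them, was at 43.7 to 83.1 CPM in the protrusions, against 75.5 to 160 CPM in the open neural tubes (log2 −0.81 ± 0.31, edgeR adjusted p = 0.242). Hdac5, a signal-responsive partner of MEF2 factors, was at 17.2 to 27.8 CPM in the protrusions, against 20.4 to 96.2 CPM in the open neural tubes, with open neural tube 10 at the top (log2 −1.11 ± 0.46, edgeR adjusted p = 0.274). Hdac11 was at 17.2, 21.7, 27.2 and 24.5 CPM in protrusions 1, 2, 3 and 4, and at 16.7, 0.353, 3.18 and 12.2 CPM in open neural tubes 9, 10, 13 and 14, groups that do not overlap before TMM scaling and overlap after it (log2 1.36 ± 0.85, edgeR adjusted p = 0.514; named after its values were seen). In open neural tube 10 the value rests on 2 reads.

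Sirtuins, which remove acyl groups with the help of NAD, were among the weakly tagged families, and 0 of their 5 tested members passed in edgeR, DESeq2 or limma-voom or had an unadjusted p under 0.05 in edgeR. Sirt1, the nuclear deacetylase, was the most abundant at 48.0 ± 6.11 CPM in the protrusions, against 40.7 ± 12.4 CPM in the open neural tubes (SD, n = 4 each; edgeR adjusted p = 0.877). Sirt6, a chromatin-bound deacetylase that restrains glycolytic genes, was at 8.51, 15.5, 12.4 and 11.1 CPM in protrusions 1, 2, 3 and 4, and at 2.47, 8.47, 6.72 and 2.15 CPM in open neural tubes 9, 10, 13 and 14. Its groups did not overlap, although protrusion 1 and open neural tube 10 nearly met (log2 1.19 ± 0.72, edgeR adjusted p = 0.495). Sirt7, the nucleolar member, was at 1.64, 17.3, 22.2 and 16.6 CPM in protrusions 1, 2, 3 and 4, and at 4.64, 12.2, 12.2 and 12.8 CPM in open neural tubes 9, 10, 13 and 14 (edgeR adjusted p = 0.874). Sirt4, a mitochondrial member, was read 50, 51 and 24 times in attached protrusions 2, 3 and 4 and never in the separated protrusion or an open neural tube (named after its values were seen).

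Among the KDM demethylases, 11 of 12 were tested, and 0 passed in edgeR, DESeq2 or limma-voom or had an unadjusted p under 0.05 in edgeR. Kdm5a, which erases an H3 mark of active promoters, was the most abundant at 107 ± 13.5 CPM in the protrusions, against 114 ± 42.6 CPM in the open neural tubes (edgeR adjusted p = 0.832). Kdm2b, which brings a PRC1 variant to CpG islands, was at 84.1, 90.5, 199 and 88.1 CPM in protrusions 1, 2, 3 and 4, and at 88.6, 75.9, 63.0 and 92.6 CPM in open neural tubes 9, 10, 13 and 14, so that protrusion 3 alone stood apart (edgeR adjusted p = 0.559). Kdm4c was at 32.1 to 68.9 CPM in the protrusions, against 30.4 to 53.8 CPM in the open neural tubes (edgeR adjusted p = 0.730). The TET enzymes, which oxidize methylated cytosine in DNA, had 3 tested members, of which 0 passed in edgeR, DESeq2 or limma-voom or had an unadjusted p under 0.05 in edgeR. Tet1 was at 37.8, 29.8, 56.8 and 26.0 CPM in protrusions 1, 2, 3 and 4, and at 23.4, 48.9, 12.3 and 8.60 CPM in open neural tubes 9, 10, 13 and 14 (edgeR adjusted p = 0.649). Tet2 was at 5.45 to 10.1 CPM in protrusions, inside the open neural tube range of 0 to 30.8 CPM (edgeR adjusted p = 0.683).

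At the low end, 19 of the 89 members had a mean under 5 CPM and 12 were too low to test. No read was found in any open neural tube for 8 members, while 0 members lacked reads in all protrusions. The 8 were Cbx7, Chd5, Hdac8, Kdm4d, Setd6, Sirt4, Smarca5 and Smarcd3 (named after their values were seen), with means of 0.0628 to 3.63 CPM in protrusions. The same count was not made over all genes, so it is not a result about the members. Of all genes, 14575 to 16330 were detected per protrusion library, against 9920 to 11557 per open neural tube library. Under 5 CPM, 17.1% of the members' protrusion values and 67.1% of their open neural tube values were at 0, beside 32.4% of protrusion values and 76.2% of open neural tube values for all genes of that level with a read. Zeros were thus less frequent among members than among all genes of that level in both groups, with no test made.

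The separated protrusion was set beside the 3 attached ones without a test, since it is 1 library. Of 46 members with a mean of at least 20 CPM, 7 were at least 2-fold lower in the separated protrusion than in every attached one, which is 15.2%, beside 7.11% of all genes of that level. They were Hdac1, Arid3a, Setd1a, Setd3, Setd5, Chd7 and Smarca4, of which some are named after their values were seen. Setd1a, a methyltransferase of active promoters, was at 21.9 CPM in the separated protrusion, against 112, 82.0 and 101 CPM in attached protrusions 2, 3 and 4. Setd3, an actin histidine methyltransferase despite its family name, was at 15.7 CPM in the separated protrusion, against 78.0, 38.7 and 41.5 CPM in attached protrusions 2, 3 and 4. Arid3c alone was at least 2-fold higher there, where 1.31% of all genes were. Primitive streak and presomitic markers summed to 321 CPM in the separated protrusion, against 1777, 1581 and 1491 CPM in attached protrusions 2, 3 and 4. Neural plate markers summed to 1113 CPM in the separated protrusion, against 630, 453 and 862 CPM in the attached ones, and endothelial markers to 34.7 CPM in the separated protrusion, against 1.58, 2.71 and 3.73 CPM in the attached ones. The part of these tissue markers in the differences was not tested.

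**Figure D4:**
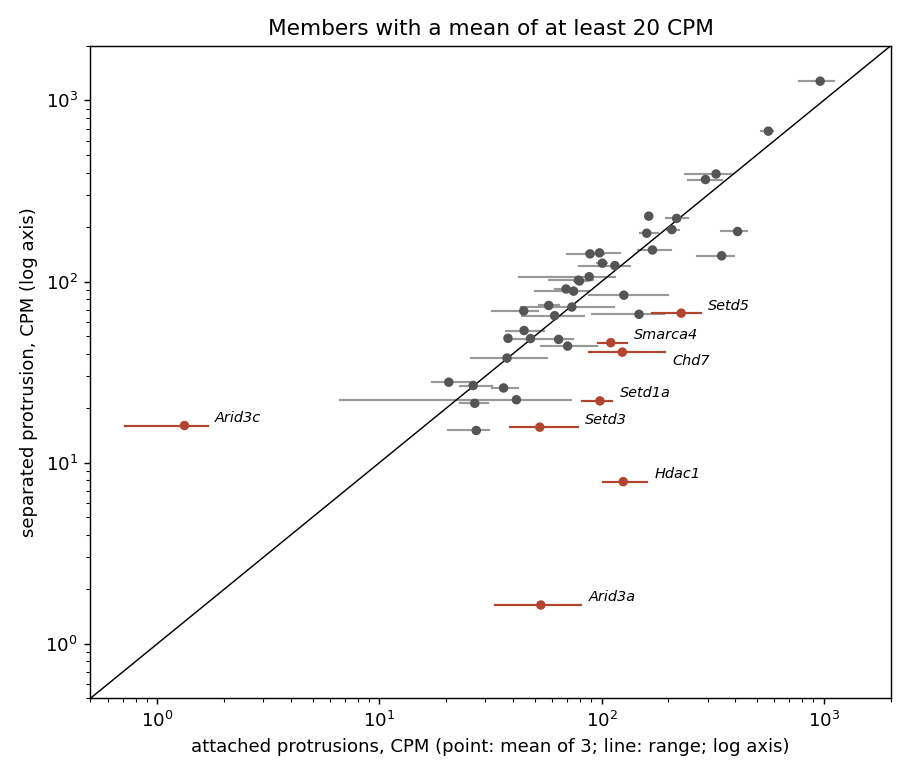
CPM in the separated protrusion (vertical, log axis) against the attached protrusions (horizontal, log axis; point for the mean of 3, line for their range) for the 46 members with a mean of at least 20 CPM, with the line of equality. The 7 red points under the line are lower in the separated protrusion by at least 2-fold, led by Arid3a at 1.64 CPM and Hdac1 at 7.85 CPM, and the red point above it is Arid3c at 16.0 CPM.

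Partners of these enzymes that the naming rule does not take were examined in 8 lists. Of 110 such genes in the files, 100 were tested, and 0 passed in edgeR. At an unadjusted p under 0.05 in edgeR, 7 were higher and 11 lower, beside 7.02% and 8.33% of all genes tested. DESeq2 called 2 higher (Dnmt3b and Myst1) and 4 lower (Mtf2, Aebp2, Phf10 and Setdb1), beside 3.7% and 3.51% of all genes. With limma-voom 1 was higher and 3 lower, beside 2.0% and 1.35% of all genes, and with sample weights 0 were called. In 7 of the 100 every protrusion lay above every open neural tube and in 3 below, beside 8.84% and 4.55% of all genes. The median log2 fold change was 0.07, beside 0.08 for all genes. Mtf2, a Polycomb-like subunit that brings PRC2 to CpG islands, came nearest. It was at 233, 268, 254 and 248 CPM in protrusions 1, 2, 3 and 4, and at 366, 378, 426 and 370 CPM in open neural tubes 9, 10, 13 and 14, with no overlap (log2 −0.71 ± 0.15, edgeR adjusted p = 0.0681). Myst1 (now Kat8), which acetylates histone H4, was at 52.2, 51.3, 60.1 and 56.4 CPM in protrusions 1, 2, 3 and 4, and at 24.2, 35.5, 22.0 and 24.1 CPM in open neural tubes 9, 10, 13 and 14, again with no overlap (log2 0.97 ± 0.25, edgeR adjusted p = 0.0832). Phf10, a PBAF subunit like Arid2, was at 230 ± 66.7 CPM in the protrusions, against 394 ± 31.3 CPM in the open neural tubes (SD, n = 4 each; log2 −0.85 ± 0.24, edgeR adjusted p = 0.101). Dnmt3b, a de novo DNA methyltransferase, was at 78.9 ± 46.5 CPM in the protrusions, against 21.9 ± 13.7 CPM in the open neural tubes (SD, n = 4 each; log2 1.71 ± 0.50, edgeR adjusted p = 0.118). Setdb1, a methyltransferase of H3 in heterochromatin, had a fitted difference of −0.73 ± 0.22 (log2 scale; edgeR adjusted p = 0.124), and Ruvbl2, an ATPase of the INO80 and SRCAP remodelers, differed by 0.59 ± 0.19 (log2 scale; edgeR adjusted p = 0.166). Dpy30, a COMPASS subunit, had a fitted log2 difference of 0.85 ± 0.29 (edgeR adjusted p = 0.182). Rbbp4, a histone chaperone of several complexes, had one of −0.36 ± 0.15 (edgeR adjusted p = 0.274).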

How the data were processed

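The authors deposited whole-number counts of SAGE reads per gene symbol for each of the 8 libraries, with no normalization. Each SOLiD SAGE library was made from 7 to 12 ng of RNA, per the labels' protocols. The submitters' processing notes name build mm9. The sources used here do not give the mapping program or the treatment of tags matching several genes. Reads may be PCR copies, so the floor of 3 reads covers counting error only.

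CPM values were computed on library totals. Groups were compared in R 4.3.3 with edgeR 4.0.16 (filterByExpr with minimum count 10, TMM factors, robust quasi-likelihood F test, 2-sided, adjusted over all genes tested), with DESeq2 1.42.0 and limma 3.58.1 as alternatives. Other alternatives were relative log expression, upper-quartile or no scaling factors, no low-count filter or a filter of 20 CPM in 4 libraries, thinning to the smallest total, leaving out each library, and leaving out protrusion 1 and open neural tube 13 together. The common dispersion was 0.5565. Standard errors were derived from the F statistic. On simulated data with 11036 genes in this comparison, the share called was 4% at 2-fold, 38% at 4-fold, 52% at 8-fold and 56% at 16-fold, with 1 false call of 76. Groups came from source names, and open neural tube numbers from titles. Protrusions were numbered in listed order, which pairs nothing. Tags came from GENCODE M21, which is of another build than mm9. Of the 89 symbols, 88 matched it as written and 1, Setd8, through the synonym Kmt5a in the RefSeq table.

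Members and lists were chosen with earlier results of these data known. Named are members past the threshold, the most abundant and the 2 of smallest p in each family, members of at least 20 CPM whose groups do not overlap, and, of each partner list, the gene of smallest p. A further part of the rule, for members at 0 in a whole group and of at least 5 CPM in the other, took none. For 1 member no values are reported here, in text or figures, although it stays in the counts and sums.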

Additional observations from a re-analysis of the deposited data

Results flagged for a closer look

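In 10 of 76 groups of 4 libraries examined (36 named members, and the summed level and number of members detected, in each group), the highest or lowest library stood apart from the others by more than Dixon's 95% limit, where chance flags about 1 in 20. Of protrusions, Setd8 stood apart with 230 CPM in protrusion 1 (others 162 to 164) and Arid3c with 16.0 CPM in protrusion 1 (others 0.717 to 1.68). In protrusion 2, Arid1b stood at 50.2 CPM (others 86.6 to 88.5), Setd2 at 42.6 CPM (others 106 to 114) and Arid3b at 206 CPM (others 146 to 156). Kdm2b stood at 199 CPM in protrusion 3 (others 84.1 to 90.5). Of open neural tubes, Sirt7 stood at 4.64 CPM (others 12.2 to 12.8) and Suz12 at 444 CPM (others 335 to 351) in open neural tube 9. Smarca1 stood at 113 CPM (others 22.6 to 36.9) and Chd8 at 3.002 CPM (others 0.197 to 0.353) in open neural tube 13.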

How the results depend on the processing

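The count of members called higher stayed at 1 in the alternatives other than DESeq2, which called 3 (Arid3b, Chd8 and Ezh2), and the fits without protrusion 4, open neural tube 9 or open neural tube 14, which called 0 (and 6, 1 and 2 genes in all); over all fits with a library left out it was 0 to 1. The count called lower was 0 except with DESeq2 (1, Arid2) and without protrusion 1 and open neural tube 13 together (1, Arid3c). It was 0 in every fit that left out a single library. Over all genes, DESeq2 called 795 and limma-voom 370, against 67 in edgeR. The count of members whose groups do not overlap, 11, was 9 with TMM-scaled CPM (11.7%, beside 13.2% of all genes), 10 after thinning (with 1440 of all genes, against 1478 before it), and 11 to 21 with a library left out (14.3% to 27.3%, beside 15.1% to 24.1% of all genes), at 21 without protrusion 1 and 19 without open neural tube 13. At least 3 reads were found for 83.25 members per protrusion library, against 85.75 with at least 1 read. A floor of 3 reads can only keep or lower this count. The log2 fold change changed sign for Arid3c with limma-voom (0.34), Tet2 with limma-voom (0.094) and Ep300 without protrusion 1 and open neural tube 13 (−0.049). With a library left out it ran over −0.31 to 0.083 for Cbx2 (above 0 without protrusion 2), −0.38 to 0.027 for Kdm5a (above 0 without open neural tube 14) and −0.22 to 0.19 for Cbx5 (above 0 without protrusion 1 or open neural tube 13). That of Cbx5 was also above 0 with no scaling factors (0.036), the 20 CPM filter (0.018), sample weights (0.16), and without protrusion 1 and open neural tube 13 (0.36). None of these had passed the threshold in edgeR with all libraries. With no scaling factors the median log2 fold change was 0.33 over members and 0.17 over all genes, and with limma-voom 0.30 over members and 0.35 over all genes. No paired analysis was possible because the groups share no replicate numbers. With 4 libraries a group, changes of 2-fold were seldom called in the simulation.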

Other observations

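Most members with a promoter entry had a promoter rich in the dinucleotide CG, a trait that the naming rule did not use. In RefSeq promoters of GRCm38.p6 (250 bases before to 50 after a start), 70 members had an entry, and the dinucleotide CG, which reads the same on both strands, occurred a median of 26.5 times, beside 8 times over 27025 genes, taking the promoter with the most where a gene has several. At least 15 were found in 61 of the 70 members (87.1%), beside 37.1% of all genes. Among the members the count ran from 1 to 57. The 27025 genes were not matched to the members in expression or in the number of promoters listed. Whether the trait is particular to the members was not tested. The Arid3b promoter with the most, chr9:57836730-57837029 on the minus strand, is printed because Arid3b is the member that was called, with each of its 25 CG in capitals; a CG is a description and not a regulatory site.
Arid3b: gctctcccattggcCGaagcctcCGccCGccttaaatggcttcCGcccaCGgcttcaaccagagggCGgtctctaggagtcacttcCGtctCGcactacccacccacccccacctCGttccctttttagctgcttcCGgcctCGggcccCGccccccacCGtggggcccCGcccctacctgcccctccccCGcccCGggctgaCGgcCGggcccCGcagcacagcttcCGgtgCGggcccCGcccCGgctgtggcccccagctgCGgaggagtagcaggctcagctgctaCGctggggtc

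Members of at least 20 CPM had a median SD of log2 CPM of 0.35 across protrusions and 0.43 across open neural tubes, beside 0.32 and 0.48 for all genes of that level. With the separated protrusion left out, the protrusion value was 0.30 for the 46 members and 0.26 for the 5584 genes.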
